A study of Mus musculus with 13 samples.

Results

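Cadherins are calcium-dependent adhesion receptors that hold neighbouring cells together by binding the like molecule on the next cell. The 9 members described here were chosen by name as the cadherin genes of kidney cell types: Cdh1, Cdh2, Cdh3, Cdh4, Cdh5, Cdh6, Cdh11, Cdh13 and Cdh16. They are 9 of 18268 protein-coding genes with at least 1 open chromatin peak in their window, which was the gene body in GENCODE plus 2 kb upstream of the start. Their windows hold 334 of the 300755 peaks of the series, from 7 at Cdh16 to 102 at Cdh13.

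Open chromatin was measured in nuclei of whole mouse kidneys by snATAC-seq, in which Tn5 transposase inserts sequencing adapters into accessible DNA of single nuclei. Of the 5 samples, 2 were from P0 mice, which the protocol describes as pups at 1 day of age with both kidneys taken, 1 was from P21 mice at 3 weeks and 2 were from P56 mice at 8 weeks. Adult here means the P21 sample and both P56 samples together. Strain, sex and genotype were not given for these samples in the sources used here, where the methods name wild type and C57BL/6 mice only for single-cell RNA-seq, nor how many animals made up each one, so p-values measure the spread between samples, which may be technical. The adult mice were perfused with PBS and the pups were not, and lysis differed, so stage and handling cannot be told apart.

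The deposited matrix says for each nucleus whether a peak is open, and a pair of a nucleus and an open peak is termed an open call here. The 13 main clusters of the deposited annotation hold 27652 nuclei, 3253 to 6931 per sample, with 16446957 to 42370435 open calls per sample. Nuclei at P0 were deeper, with a median of 6205 and 6757 open peaks against 3383 to 6173 in the adult samples, so the level of a member is given as open calls in its window per 10000 open calls of the same cluster and sample. Of 46 marker genes listed for the clusters, 43 were highest in the cluster they name. The cluster labelled nephron progenitors held 1032 and 1005 nuclei at P0 but 52, 90 and 53 in the adult samples, and the summed level of its 4 markers there was 2.22 and 2.25 per 10000 at P0 against 0.259 to 0.670 in adult, so the adult nuclei under that label did not carry the marker level of the P0 ones. The part of this shift in the stage results of the nephron progenitor cluster was not tested for any member. Stromal nuclei made up 33.8 and 30.5% of nuclei at P0 and 7.18 to 9.26% in adult samples. A total of 477 barcodes occurred in more than 1 sample, and nuclei that share a droplet were not searched for. The clusters of a sample share its animals and library, so cluster levels were compared as a description and only the 2 P0 against the 3 adult samples were tested.

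On mm10 the members lie at Cdh1 chr8:106603351-106670246, Cdh2 chr18:16588877-16809246, Cdh3 chr8:106510891-106557297, Cdh4 chr2:179442431-179899373, Cdh5 chr8:104101625-104144511, Cdh6 chr15:13028701-13173675, Cdh11 chr8:102632095-102785642, Cdh13 chr8:118283733-119324921 and Cdh16 chr8:104601911-104624396. Peaks are numbered along the chromosome within each window, and their distance is counted from the annotated start in the direction of the gene. Antisense genes overlap Cdh2, Cdh5 and Cdh13, and ATAC-seq reads carry no strand, so openness there cannot be given to 1 gene.

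Classical cadherins connect through catenins to the actin cytoskeleton. E-cadherin (Cdh1) is the adherens junction molecule of most epithelia, P-cadherin (Cdh3) is a close relative, and Cdh16 is the kidney-specific cadherin of tubule epithelium. N-cadherin (Cdh2) is known from mesenchyme, neurons and the proximal tubule, R-cadherin (Cdh4) and K-cadherin (Cdh6) from the forming nephron, and OB-cadherin (Cdh11) from mesenchyme. VE-cadherin (Cdh5) builds the junctions of endothelium, and T-cadherin (Cdh13) is held at the membrane by a lipid anchor and has no cytoplasmic tail. The mesenchyme of the developing kidney turns into epithelium when nephrons form, a step in which cadherins are known to be exchanged.

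The following sequences are the central 300 bases of 5 intronic peaks the results turn on, read from GRCm38.p6 on the + strand. They are shown because each is the most open peak of its gene beside the start peak, except Cdh1 peak 7, which was chosen after its values were seen because its stage difference had opposite signs in PCT and the loop of Henle. Capitals mark matches to the motifs described after them. The last is the promoter of Cdh6 in RefSeq on GRCm38.p6, the 250 bases before the start on the − strand. No sequence is shown for the other members.
Cdh1 peak 7, chr8:106619811-106620110: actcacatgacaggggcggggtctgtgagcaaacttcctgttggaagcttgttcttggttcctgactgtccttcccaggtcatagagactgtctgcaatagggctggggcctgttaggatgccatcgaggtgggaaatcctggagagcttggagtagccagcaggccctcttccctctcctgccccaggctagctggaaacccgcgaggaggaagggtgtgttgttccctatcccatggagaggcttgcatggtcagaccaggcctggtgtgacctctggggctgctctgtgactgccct
Cdh1 peak 9, chr8:106623317-106623616: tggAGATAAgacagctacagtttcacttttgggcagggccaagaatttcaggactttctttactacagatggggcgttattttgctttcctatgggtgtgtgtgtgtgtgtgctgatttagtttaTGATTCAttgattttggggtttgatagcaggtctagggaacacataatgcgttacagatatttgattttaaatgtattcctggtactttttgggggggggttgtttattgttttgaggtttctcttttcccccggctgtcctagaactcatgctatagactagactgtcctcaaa
Cdh4 peak 63, chr2:179767392-179767691: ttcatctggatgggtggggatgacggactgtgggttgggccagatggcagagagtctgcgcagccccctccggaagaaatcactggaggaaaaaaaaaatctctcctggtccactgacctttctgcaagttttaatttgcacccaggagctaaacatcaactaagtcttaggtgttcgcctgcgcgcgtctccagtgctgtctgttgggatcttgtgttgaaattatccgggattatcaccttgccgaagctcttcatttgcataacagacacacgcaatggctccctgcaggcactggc
Cdh5 peak 10, chr8:104122028-104122327: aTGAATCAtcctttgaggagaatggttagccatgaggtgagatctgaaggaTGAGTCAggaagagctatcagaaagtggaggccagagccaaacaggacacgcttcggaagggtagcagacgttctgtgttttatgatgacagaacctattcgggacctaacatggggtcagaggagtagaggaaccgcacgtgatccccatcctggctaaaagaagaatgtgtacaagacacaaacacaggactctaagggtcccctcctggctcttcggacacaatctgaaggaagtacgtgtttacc
Cdh6 peak 13, chr15:13088998-13089297: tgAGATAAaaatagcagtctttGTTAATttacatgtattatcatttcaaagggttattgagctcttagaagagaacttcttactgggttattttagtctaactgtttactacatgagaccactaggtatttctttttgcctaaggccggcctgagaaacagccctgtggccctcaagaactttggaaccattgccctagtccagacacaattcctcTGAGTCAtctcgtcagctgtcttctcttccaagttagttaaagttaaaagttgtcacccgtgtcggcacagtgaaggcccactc
Cdh6 promoter, chr15:13173676-13173925: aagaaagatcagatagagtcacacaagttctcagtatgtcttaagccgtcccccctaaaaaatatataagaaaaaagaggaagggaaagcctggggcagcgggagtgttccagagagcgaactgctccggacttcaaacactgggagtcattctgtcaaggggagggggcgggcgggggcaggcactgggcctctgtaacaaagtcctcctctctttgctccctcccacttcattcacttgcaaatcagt

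The 8 motifs were searched on both strands in the central 300 bases of 300693 peaks on the assembled chromosomes, and none of them is part of another. The E-box CACCTG was in 18.5% of all peaks and 15.6% of the 334 member peaks. The TEAD motif GGAATG was in 18.8 and 18.9%, the HNF1 motif GTTAAT in 11.8 and 11.7%, and the GATA motif AGATAA in 15.3 and 13.8%. The AP-1 motif TGANTCA was in 10.5% of all peaks and 10.8% of the member peaks. The longer motifs were rarer, with the ETS motif CCGGAAGT in 0.601 and 0.599%, the HNF4 motif CAAAGTCCA in 0.802 and 0.299%, and the Grainyhead motif AACCGGTT in 0.116% of all peaks and in 0 of 334 member peaks. The difference between member peaks and all peaks was not tested, and 144 member peaks held none of the motifs. Among the sequences shown, Cdh5 peak 10 held the AP-1 motif at positions 2 and 52, counted from 1 at the first base, Cdh1 peak 9 the AP-1 and GATA motifs, and Cdh6 peak 13 the AP-1, HNF1 and GATA motifs. Cdh1 peak 7, Cdh4 peak 63 and the Cdh6 promoter held no match in these windows. The start peak of Cdh1 held the E-box.

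The clusters in which each window was most open followed the known sites of these cadherins for some members and not for others. By level, Cdh5 was highest in endothelial cells and Cdh3 in the distal convoluted tubule (DCT) in 5 of 5 samples. By the same measure, both P0 samples had the same leading cluster for Cdh2, Cdh4 and Cdh13, and no adult sample had it. Cdh2 and Cdh4 were led by nephron progenitors at P0, and in adult Cdh2 by the proximal convoluted tubule (PCT) and Cdh4 by PCT at P21 and the proximal straight tubule (PST) at P56. Cdh13 was led by endothelial cells at P0 and by the cluster stroma 2 in adult. The order of the other 4 members varied between samples of a stage.

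**Figure D1:**
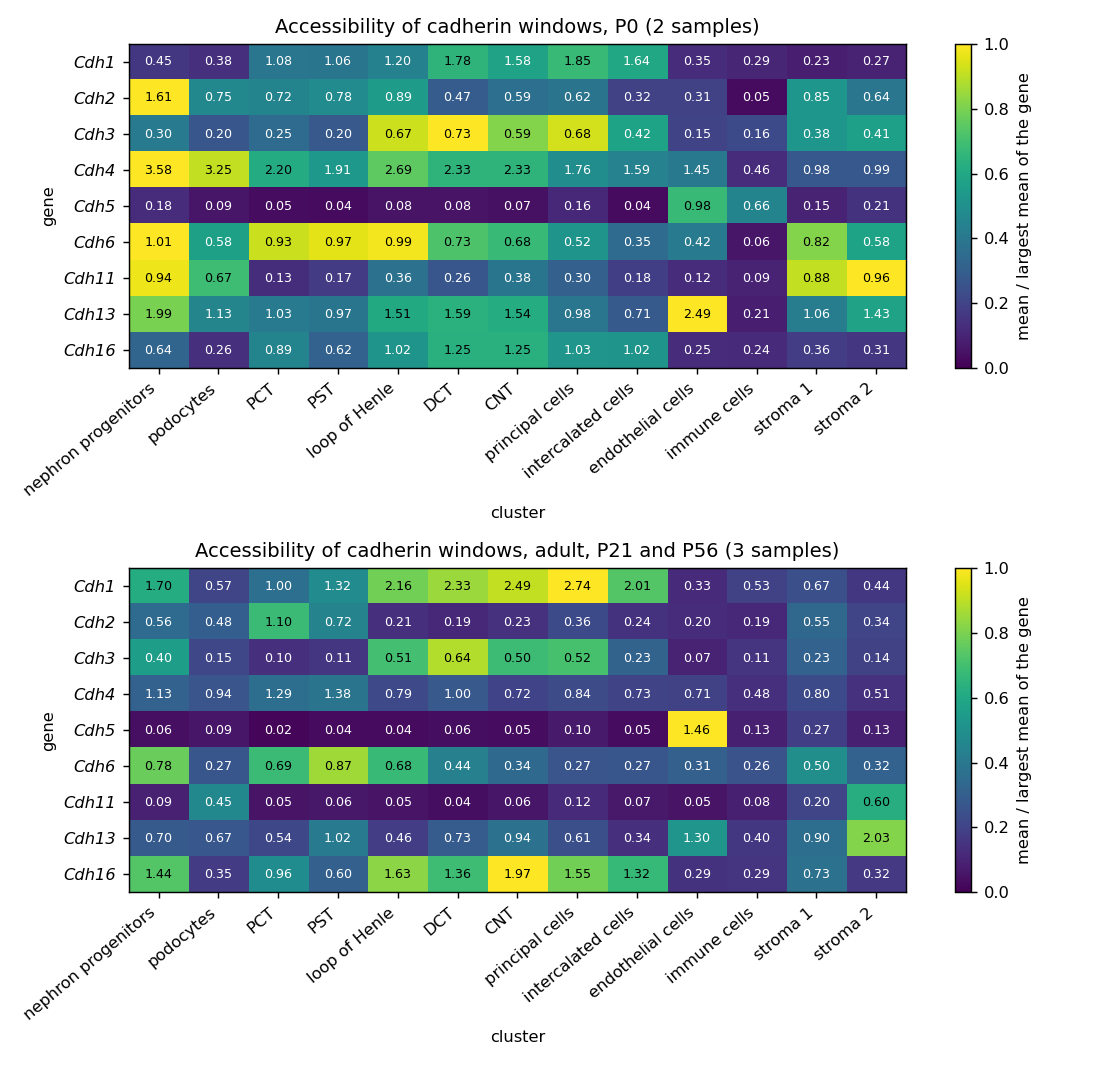
Heat maps of the mean level of the 9 cadherin windows (rows) in 13 clusters (columns) at P0 (2 samples, upper map) and in adult kidney (3 samples, lower map). Printed values are open calls in the window per 10000 open calls, and colour is the mean divided by the largest mean of the same gene in either map, so colours compare clusters and stages within a gene and not levels between genes. The brightest cell of Cdh13 is endothelial cells at P0 (2.49), and that of Cdh5 is endothelial cells in adult (1.46).

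Between stages, 102 of the 117 pairs of a member and a cluster had enough open calls to be tested. The window was more open at P0 in 48 pairs, against 13.7% of all gene and cluster pairs tested, and less open at P0 in 14, against 10.5%. The medians of the log2 fold change of P0 over adult were −0.04 to 0.02 over all genes of the 13 clusters and 0.68 over the member pairs. Leaving out a P0 sample leaves 1, which is then assumed to vary like the adult samples, and all 62 called pairs kept their direction without either of them, while 31 lost the call without P0 sample 1 and 25 without P0 sample 2. Cdh2, Cdh3, Cdh4, Cdh6, Cdh11 and Cdh13 made up most of the pairs that were higher at P0, while the epithelial Cdh1 and Cdh16 were called only as lower at P0, in 6 and 5 of 12 clusters each. For these last genes edgeR gave 0 clusters as higher at P0, also at an unadjusted p under 0.05 and with DESeq2. The stage effect differed between clusters for 9 of 9 members, which is also true of 61.0% of all 17235 genes in that test.

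By cluster, the nephron progenitor cluster had 5 of 8 tested members higher at P0, against 20.8% of all genes tested there, and 2 lower, against 18.3%. The loop of Henle had 5 of 9 higher, against 28.3%, and 2 lower, against 22.7%. In the connecting tubule (CNT) 5 of 8 were higher, against 15.8%, and 2 lower, against 9.71%. In principal cells 5 of 9 were higher, against 17.8%, and 2 lower, against 12.1%. In these 4 clusters the same genes made up the lower calls, Cdh1 and Cdh16. PCT had 4 of 9 higher, against 14.9%, and 1 lower, Cdh2, against 12%. PST had 1 of 8 higher, against 7.70%, and none lower by edgeR, against 5.41%, with 1 lower at an unadjusted p under 0.05 and none by DESeq2.

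DCT had 3 of 7 higher, against 5.03%, and intercalated cells 2 of 7, against 1.43%. Neither cluster had a member lower by edgeR, at an unadjusted p under 0.05 or by DESeq2, and the background was 1.59 and 0.449%. In podocytes 3 of 8 were higher, against 5.91%, and none lower by edgeR, against 6.27%, with 1 lower at an unadjusted p under 0.05 and none by DESeq2. In endothelial cells 5 of 9 were higher, against 14.0%, and 1 lower, Cdh5, against 10.4%. Stroma 1 had 4 of 9 higher, against 15.3%, and 2 lower, Cdh1 and Cdh16, against 13.1%. Stroma 2 had 6 of 9 higher, against 19.7%, and 2 lower, Cdh1 and Cdh13, against 15.6%. DESeq2 called fewer in 7 clusters, with 0 higher in PST, 1 in podocytes, 1 in intercalated cells, 1 in stroma 1, 2 in DCT, 2 in endothelial cells and 5 in stroma 2, and none lower in stroma 2. In immune cells Cdh4 and Cdh5 could be tested and neither was called by edgeR or DESeq2, with edgeR p before adjustment of 0.562 and 7.3e-04 and adjusted p of 0.185 for Cdh5.

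**Figure D2:**
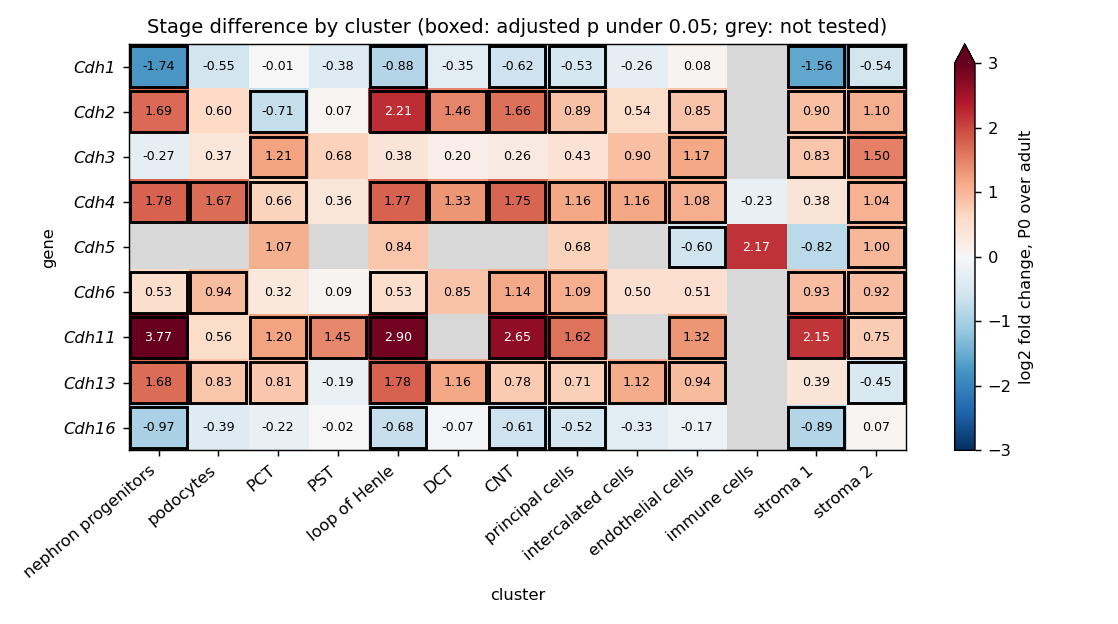
Grid of the log2 fold change of P0 over adult for the 9 cadherin windows (rows) in 13 clusters (columns), from edgeR on open calls of 2 P0 and 3 adult samples. Boxed cells have an adjusted p under 0.05, and grey cells had too few open calls to be tested. The rows of Cdh4 and Cdh11 hold 10 and 9 boxed cells, all with positive values, while Cdh1 and Cdh16 hold 6 and 5, all with negative values.

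Cdh1, the E-cadherin gene, was most open along the distal nephron and collecting duct. At P0 its level was 1.85 ± 0.00743 (SD, n = 2) per 10000 in principal cells, 1.78 ± 0.160 in DCT, 1.64 ± 0.00107 in intercalated cells and 1.58 ± 0.0821 in CNT, and these neighbours in the order did not differ beyond their spread, whereas CNT stood beyond the spread of the next cluster. In adult the order began with principal cells at 2.74 ± 0.369 (n = 3), CNT at 2.49 ± 0.235 and DCT at 2.33 ± 0.228, again with overlapping spreads. Before thinning, 68.4 ± 2.30% of P0 and 67.2 ± 16.2% of adult principal cell nuclei had a peak of the window open, and after each nucleus was thinned to 1000 open peaks the shares were 18.3 and 28.4%. The lowest mean levels were 0.225 in stroma 1 at P0 and 0.329 in adult endothelial cells.

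The Cdh1 window was less open at P0 than in adult in 6 clusters. In the loop of Henle the level at P0 was 1.10 and 1.29 per 10000, and the adult values were 2.09 at P21 and 2.08 and 2.31 at P56. All adult samples lay above both P0 samples, with a log2 fold change of −0.88 ± 0.12 (SE, edgeR adjusted p = 2.7e-04). In the nephron progenitor cluster its level was 0.439 and 0.460 at P0 against 2.08, 1.55 and 1.46 in adult, a log2 fold change of −1.74 ± 0.16 (edgeR adjusted p = 1.9e-14). Again no sample overlapped, but the adult side holds 153 open calls, and the summed level of 25 tubule markers in that cluster also moved, from 4.37 and 4.38 per 10000 at P0 to 5.58 to 6.64 in adult. Their part in the result was not tested. Tubule markers rose in the same way in stroma 1, from 5.12 and 5.17 to between 6.59 and 8.87, where Cdh1 had a log2 fold change of −1.56 ± 0.26 (edgeR adjusted p = 1.7e-04, and 0.0838 without P56 sample 2).

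CNT, principal cells and stroma 2 gave smaller differences in Cdh1, with log2 fold changes of −0.62 ± 0.15, −0.53 ± 0.14 and −0.54 ± 0.18. The edgeR adjusted p of these was 0.00482, 0.00776 and 0.0330. Tubule markers rose from P0 to adult in CNT too, from 6.42 and 6.48 to between 15.4 and 19.5 per 10000. In principal cells they rose from 5.39 and 5.62 to between 7.25 and 9.04. They also rose in PCT, PST, DCT and intercalated cells, where Cdh1 was not called. In DCT the rise was from 11.4 and 11.7 to between 15.6 and 18.0. In stroma 2 they overlapped between stages, at 4.71 to 4.75 at P0 and 3.43 to 4.95 in adult. Their part was not tested. When 1 sample was left out, the log2 fold change was −0.70 to −0.54 in CNT, −0.62 to −0.42 in principal cells and −0.77 to −0.42 in stroma 2. Over all 14 alternative settings the values closest to none were −0.20, −0.34 and −0.01. The adjusted p rose to 0.0832 in CNT without P0 sample 2, to 0.146 and 0.158 in principal cells without P0 sample 1 or 2 and 0.0618 without P56 sample 2, and in stroma 2 to 0.317 and 0.142 without P0 sample 1 or 2, 0.126 without P21 and 0.123 without P56 sample 2. In PCT the level was 1.09 and 1.07 at P0 and 0.975, 1.09 and 0.945 in adult, and these samples overlapped.

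The single peaks of Cdh1 did not all follow the window. Of 69 tested pairs of a Cdh1 peak and a cluster, 23 were lower and 5 higher at P0. In PCT, where the window as a whole was not called, 3 of 15 tested peaks were higher and 3 lower at P0. Over all peak and cluster pairs of the series, 18.0% were higher and 16.0% lower at P0. The difference of the Cdh1 peaks in PCT from that background was not tested. Cdh1 peak 7, an intronic peak 16.6 kb past the start, had 15.1 and 14.9 open calls per 1000000 open calls of the cluster (CPM) at P0 in PCT and 2.96, 3.81 and 3.18 in adult. In PST the values were 10.9 and 11.1 against 3.11, 3.93 and 3.37, and in the loop of Henle 13.2 and 14.1 against 25.6, 33.5 and 33.1. The P0 samples were thus above the adult ones in both proximal segments and below them in the loop of Henle, with log2 fold changes of 1.98 ± 0.27 (edgeR adjusted p = 2.1e-04), 1.70 ± 0.48 (0.0303) and −1.39 ± 0.25 (4.6e-05).

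Further into the gene, Cdh1 peak 16 (intron, 35.8 kb) was open in 0 of the P0 open calls of PST and in 100 adult ones, at 3.11, 7.85 and 6.85 CPM in the adult samples. With the floor of 3 open calls over the P0 group it was at least 4.06-fold lower at P0. It had enough open calls to be tested there through the adult samples alone. In PCT the same peak had a log2 fold change of −4.05 ± 0.63 (edgeR adjusted p = 5.0e-04). The start peak, at 47.9 CPM in principal cells and 3.02 CPM in endothelial cells, was lower at P0 in 3 of 9 clusters tested, nephron progenitors (−2.21), stroma 2 (−1.02) and the loop of Henle (−0.80 on the log2 scale). Cdh1 peak 9 (intron, 20.1 kb), the most open peak beside the start, was lower at P0 in 4 of 8 clusters tested. Its adult means were 41.3 CPM in principal cells, 41.1 in DCT, 38.2 in the loop of Henle, 38.1 in CNT and 33.7 in PST, against 3.16 in endothelial cells. At P0 the same means were 17.4, 20.4, 11.4, 21.2 and 16.1 CPM, against 0.713.

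**Figure D3:**
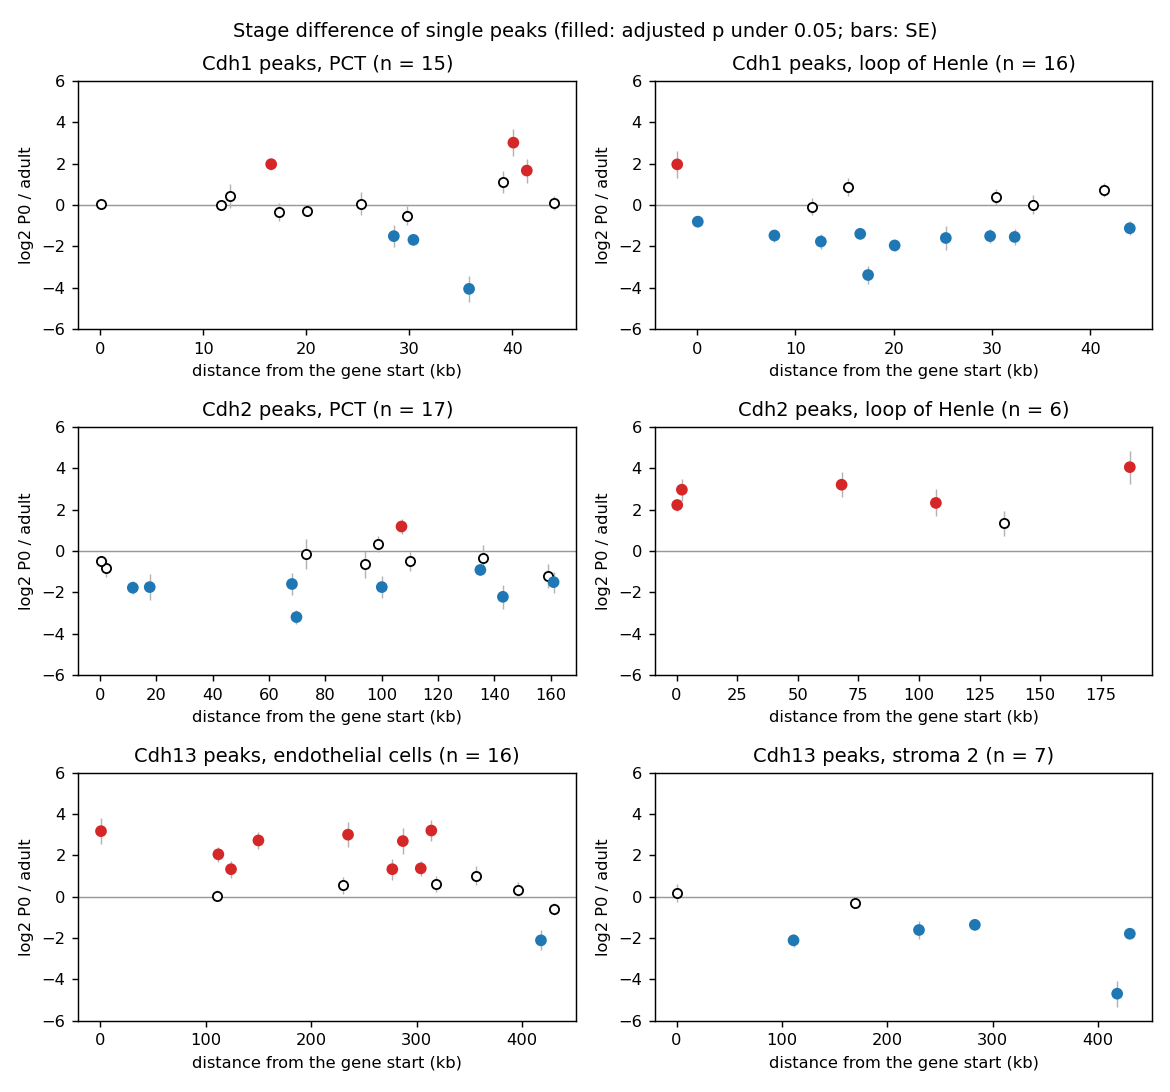
Log2 fold change of P0 over adult of single peaks (points, bars are the SE from edgeR) against their distance in kb from the gene start, for Cdh1 in PCT (15 peaks) and the loop of Henle (16), Cdh2 in PCT (17) and the loop of Henle (6), and Cdh13 in endothelial cells (16) and stroma 2 (7). Filled points have an adjusted p under 0.05, red for higher and blue for lower at P0. Cdh2 peaks lie mostly below 0 in PCT and above 0 in the loop of Henle, and Cdh13 peaks mostly above 0 in endothelial cells and below 0 in stroma 2.

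Cdh16, the kidney-specific cadherin, was open in all tubule clusters and changed between stages in the same direction as Cdh1. Its level at P0 was 1.25 ± 0.0971 (n = 2) per 10000 in CNT, 1.25 ± 0.280 in DCT, 1.03 ± 0.0800 in principal cells and 1.02 ± 0.00760 in the loop of Henle, where no neighbours in the order differed by more than the larger SD. In adult, CNT at 1.97 ± 0.190 (n = 3) came before the loop of Henle at 1.63 ± 0.186, with mean ± SD that overlapped. These means differed by more than the larger SD. In PST it was 0.616 at P0 and 0.603 in adult, below the other tubule clusters. The start peak was open in 44.1 ± 13.9% of CNT nuclei over 5 samples and in 3.32% of endothelial nuclei.

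In the loop of Henle the Cdh16 window had 1.03 and 1.02 open calls per 10000 at P0 and 1.80, 1.43 and 1.64 in adult, with no overlap, and a log2 fold change of −0.68 ± 0.13 (edgeR adjusted p = 0.00132). The other calls were in the nephron progenitor cluster at −0.97 ± 0.17, CNT at −0.61 ± 0.16, principal cells at −0.52 ± 0.13 and stroma 1 at −0.89 ± 0.22, with adjusted p of 4.6e-06, 0.00717, 0.00602 and 0.00465. Tubule markers rose from P0 to adult in the same 4 clusters, with the values given for Cdh1. They also rose in PCT, PST, DCT and intercalated cells, where Cdh16 was not called. Their part was not tested. The adjusted p of Cdh16 rose to 0.121 in CNT without P0 sample 2, to 0.191 and 0.0841 in principal cells without P0 sample 1 or 2, and to 0.194 and 0.0742 in stroma 1 without P0 sample 1 or P56 sample 2. The start peak was lower at P0 in 5 of 11 clusters tested. The most open other peak, Cdh16 peak 2 (intron, 21.4 kb), was open in 17.0 ± 7.21% of CNT nuclei over 5 samples (3.23% when thinned) and was higher at P0 in 1 of 11 clusters, stroma 2 (0.77 ± 0.24, edgeR adjusted p = 0.00879).

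Neighbouring intronic peaks of Cdh16 moved in opposite directions in the same cells. In the loop of Henle, Cdh16 peak 3 (17.7 kb) was higher at P0 with a log2 fold change of 2.37 ± 0.41 (edgeR adjusted p = 3.4e-05). Peak 4 (16.5 kb) and peak 5 (16.0 kb) were lower, at −1.94 ± 0.32 and −3.34 ± 0.45 (adjusted p of 1.7e-05 and 9.6e-07). The same 3 peaks had the same signs in CNT, at 1.40 ± 0.43, −2.63 ± 0.42 and −2.74 ± 0.73.

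Cdh3, the P-cadherin gene next to Cdh1 on the chromosome, was led by DCT in each of 5 samples by level. In thinned nuclei the lead was intercalated cells in both P0 samples (10.5 ± 0.643% of nuclei against 5.85 ± 0.562% in DCT), principal cells at P21 and DCT in both P56 samples, and with the start region alone principal cells led in 3 of 5. Its level in DCT was 0.764 and 0.688 per 10000 at P0 and 0.593, 0.650 and 0.687 in adult, and the log2 fold change of 0.20 ± 0.23 was not called (edgeR adjusted p = 0.693). Principal cells came next at both stages, at 0.675 ± 0.0101 (n = 2) at P0 and 0.515 ± 0.119 (n = 3) in adult. Their mean ± SD overlapped that of DCT. In adult the means of DCT and principal cells differed by more than the larger SD, and at P0 they did not. The window was more open at P0 in PCT, endothelial cells, stroma 1 and stroma 2, where its levels were low. In stroma 2 it was 0.420 and 0.400 at P0 against 0.114, 0.181 and 0.138 in adult, with no overlap and a log2 fold change of 1.50 ± 0.19 (adjusted p = 6.3e-05).

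In PCT the log2 fold change of Cdh3 was 1.21 ± 0.23 (edgeR adjusted p = 0.00468, and 0.0846 without P0 sample 2). In endothelial cells and stroma 1 the adjusted p was 0.0352 and 0.0221, and each was above the threshold in at least 4 of the fits that leave out 1 sample, up to 0.392 without P0 sample 2 and up to 0.170 without P0 sample 1. The start peak of Cdh3 had log2 fold changes of 0.22 to 0.73 in the 7 clusters tested, and the highest, 0.73 ± 0.32 in PCT, was not called (edgeR adjusted p = 0.0948). Cdh3 peak 2 (intron, 2.05 kb) was open in 11.1 ± 3.53% of principal cell nuclei over 5 samples (1.46% when thinned), and its lowest adjusted p in 3 clusters was 0.0795. Cdh3 peak 5 (intron, 11.6 kb) had 21.6 and 21.4 CPM at P0 in stroma 2 and 0, 3.72 and 0.690 in adult, a log2 fold change of 3.50 ± 0.42 (edgeR adjusted p = 4.2e-07).

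Cdh2, the N-cadherin gene, changed in opposite directions in different tubule segments. In the nephron progenitor cluster the level was 1.67 and 1.56 per 10000 at P0 and 0.605, 0.762 and 0.326 in adult, without overlap, and the log2 fold change was 1.69 ± 0.21 (edgeR adjusted p = 9.3e-10). At P0 this cluster stood beyond the spread of all others, with the loop of Henle next at 0.885 ± 0.137 (n = 2). In the loop of Henle the P0 samples had 0.982 and 0.788 and the adult ones 0.390, 0.137 and 0.114, a log2 fold change of 2.21 ± 0.35 (adjusted p = 5.3e-04). In PCT the direction was the other one, with 0.728 and 0.720 at P0 and 1.37, 1.07 and 0.873 in adult, a log2 fold change of −0.71 ± 0.16 (adjusted p = 0.0116). All 3 adult PCT samples lay above both P0 samples, and the P21 sample was the highest. Without P0 sample 1 or 2 the adjusted p in PCT was 0.116 and 0.112. The 4 PCT markers moved the same way in that cluster, from 3.49 and 3.53 per 10000 at P0 to between 5.05 and 6.50 in adult, as did the tubule markers, from 9.38 and 9.46 to between 12.1 and 13.1, and their part was not tested.

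The marker genes of the loop of Henle cluster moved between stages as well. The summed level of its own 4 markers was 1.57 to 1.81 per 10000 at P0 and 6.02 to 6.56 in adult, and that of the 4 nephron progenitor markers was 1.12 to 1.29 at P0 and 0.219 to 0.426 in adult. Stromal markers were at 1.02 to 1.06 against 0.468 to 0.477. The part of these shifts in the loop of Henle results of Cdh2 and the other members was not tested.

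Cdh2 was also more open at P0 in CNT, DCT, principal cells, endothelial cells, stroma 1 and stroma 2, with log2 fold changes of 0.85 to 1.66. In CNT the level was 0.661 and 0.516 at P0 against 0.354, 0.171 and 0.157 (1.66 ± 0.29, edgeR adjusted p = 4.1e-04), and in stroma 2 it was 0.679 and 0.591 against 0.512, 0.234 and 0.269 (1.10 ± 0.22, 0.00165). In CNT and stroma 2, as in the loop of Henle, the P21 sample lay between the P0 and the P56 samples. In endothelial cells and stroma 1 the P21 sample, at 0.349 and 0.884, was above both P0 samples and both P56 samples were below them. The difference between P21 and the other samples was not tested. The 4 nephron progenitor markers were also higher at P0 in each cluster where Cdh2 was. They were at 0.680 to 0.706 per 10000 against 0.163 to 0.332 in CNT and 0.618 to 0.643 against 0.202 to 0.280 in stroma 1. The 4 stromal markers were higher at P0 there too, except in stroma 2. The part of these shifts was not tested. The calls in DCT (adjusted p = 0.0261) and endothelial cells (0.0491) rose to 0.261 and 0.338 without P0 sample 1, 0.237 and 0.264 without P0 sample 2, and 0.0502 and 0.112 without P56 sample 2. The endothelial call was also at 0.106 without P56 sample 1. In stroma 1 (0.00507) the adjusted p was 0.0968, 0.0885 and 0.241 without P0 sample 1, P0 sample 2 or P56 sample 2, and in principal cells (0.00289) it was 0.139 without P0 sample 1.

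The start peak of Cdh2 was higher at P0 in 7 of 10 clusters tested. PCT was not among them. Of 17 Cdh2 peaks tested in PCT, 8 were lower and 1 higher at P0, all of them intronic except Cdh2 peak 7, which overlaps a coding exon (161 kb, −1.51 ± 0.51, edgeR adjusted p = 0.0363). Cdh2 peak 28 (intron, 69.7 kb) had 1.98 and 2.39 CPM at P0 and 21.1, 17.0 and 14.9 in adult PCT, a log2 fold change of −3.20 ± 0.33 (edgeR adjusted p = 4.2e-05). It was open in 1.46 and 1.44% of P0 and 12.4, 7.44 and 11.2% of adult PCT nuclei. Cdh2 peak 29 (intron, 68.1 kb) was the most open peak beside the start. In the cluster labelled nephron progenitors it was open in 18.2 and 20.6% of nuclei at P0 and 5.77, 8.89 and 5.66% in adult. In CNT it was open in 8.89 and 8.91% at P0 and in 0, 0.340 and 0% in adult. It was higher at P0 in the loop of Henle (3.20 ± 0.60, adjusted p = 7.9e-05) and lower in PCT (−1.60 ± 0.54, 0.0342).

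Cdh4, the R-cadherin gene, was higher at P0 in 10 of 13 clusters and lower in none by edgeR, at an unadjusted p under 0.05 or by DESeq2. In the nephron progenitor cluster the level was 3.64 and 3.52 per 10000 at P0 and 0.951, 1.10 and 1.33 in adult, and in podocytes 3.43 and 3.06 against 0.934, 1.16 and 0.742. The loop of Henle had 2.84 and 2.55 against 0.921, 0.729 and 0.712. No samples overlapped in these clusters, and the log2 fold changes were 1.78 ± 0.18, 1.67 ± 0.17 and 1.77 ± 0.14 (edgeR adjusted p of 1.1e-12, 1.0e-07 and 2.2e-05). CNT (1.75 ± 0.16) and principal cells (1.16 ± 0.14) were of a like kind, with adjusted p of 8.0e-07 and 1.6e-05. The 4 nephron progenitor markers were also higher at P0 there. In podocytes they were at 1.23 to 1.26 per 10000 against 0.371 to 0.778. In CNT they were at 0.680 to 0.706 against 0.163 to 0.332, and in principal cells at 0.724 to 0.754 against 0.218 to 0.326. They were also higher in PST and stroma 1, where Cdh4 was not called. Their part was not tested. The order at P0 fell from nephron progenitors (3.58 ± 0.0838, n = 2) to podocytes (3.25 ± 0.259), the loop of Henle (2.69 ± 0.210) and CNT (2.33 ± 0.0882). The means of nephron progenitors and podocytes differed by more than the larger SD, while their mean ± SD overlapped.

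In the proximal segments the difference in Cdh4 was smaller. In PCT it was 2.32 and 2.09 at P0 and 1.40, 1.41 and 1.06 in adult (0.66 ± 0.14, edgeR adjusted p = 0.00678, and 0.107 and 0.0559 without P0 sample 1 or 2). In PST it was 2.07 and 1.75 against 0.988, 1.47 and 1.68, and the log2 fold change of 0.36 ± 0.21 was not called (adjusted p = 0.291). The most open peak beside the start, Cdh4 peak 63 in an intron 325 kb past it, was open in 25.4 ± 6.47% of PST and 18.1 ± 3.50% of PCT nuclei over 5 samples, followed by DCT at 4.35%. In thinned nuclei the PST and PCT shares were 2.65 and 3.06%. The start peak was higher at P0 in 4 of 11 clusters: nephron progenitors (1.57), CNT (1.32), endothelial cells (0.88) and the loop of Henle (0.61 on the log2 scale). The calls for Cdh4 in DCT, intercalated cells and endothelial cells had adjusted p of 0.00181, 0.00388 and 0.00900, which were 0.0578, 0.0753 and 0.119 without P0 sample 1, and 0.199 in intercalated cells without P0 sample 2. In stroma 2 it was 9.5e-05.

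Of 77 tested pairs of a Cdh4 peak and a cluster, 46 were higher at P0, spread over 30 peaks of the gene, and the others were not called. Of these, 21 were in the loop of Henle. Cdh4 peak 29 (intron, 143 kb) had 57 open calls at P0, at 6.84 and 5.56 CPM, and 0 in adult, and was at least 18.0-fold higher at P0 with the floor of 3 open calls over the adult group. Cdh4 peak 24 (129 kb) had 39 and 0 and was at least 12.3-fold higher. Cdh4 peak 30 (150 kb) had 53 open calls at P0 and 1 in adult, a ratio of 50.2 with a 95% counting interval of 8.63 to 2019. These peaks had enough open calls to be tested through the P0 samples alone. Which Cdh4 peaks were tested thus depended in part on the P0 level.

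Cdh6, the K-cadherin gene, had a broad pattern with little difference among its leading clusters. At P0 nephron progenitors (1.01 ± 0.0707, n = 2), the loop of Henle (0.993 ± 0.0358), PST (0.968 ± 0.0678) and PCT (0.930 ± 0.0205) followed each other, and no neighbours in this order differed beyond their spread. In adult the first was PST at 0.867 ± 0.0909 (n = 3). It was higher at P0 in 7 clusters and lower in none by edgeR, at an unadjusted p under 0.05 or by DESeq2. In principal cells the level was 0.523 and 0.525 at P0 and 0.331, 0.233 and 0.239 in adult, without overlap (1.09 ± 0.20, edgeR adjusted p = 7.3e-04). In CNT it was 0.649 and 0.718 against 0.408, 0.382 and 0.242 (1.14 ± 0.25, 0.00264), and in stroma 2 0.589 and 0.579 against 0.307, 0.394 and 0.249 (0.92 ± 0.18, 0.00160). The 4 nephron progenitor markers were also higher at P0 in each cluster where Cdh6 was called. The same held in the clusters where Cdh6 was tested and not called. They were at 0.724 to 0.754 per 10000 against 0.218 to 0.326 in principal cells and 0.560 to 0.607 against 0.262 to 0.444 in stroma 2. Their part was not tested.

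The other calls of Cdh6 were in the nephron progenitor cluster and the loop of Henle, both at a log2 fold change of 0.53, in podocytes at 0.94 and in stroma 1 at 0.93. The edgeR adjusted p was 0.0224, 0.0156, 0.0309 and 0.00439. Each rose above the threshold without P0 sample 1, to 0.172, 0.115, 0.279 and 0.0588. Without P0 sample 2 it was 0.125 in the loop of Henle and 0.104 in stroma 1, without P21 0.0603 in nephron progenitors and 0.144 in podocytes, without P56 sample 1 0.0869 in podocytes, and without P56 sample 2 0.484 in nephron progenitors, 0.0719 in podocytes and 0.183 in stroma 1.

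The start peak of Cdh6 had 51.4 CPM in PST, 54.5 in PCT and 42.7 in nephron progenitors at P0 and 46.2, 45.0 and 38.0 in adult, and was higher at P0 in CNT (1.23 ± 0.36, edgeR adjusted p = 0.0144) and principal cells (0.99 ± 0.29, 0.0112). Its most open peak beside the start, Cdh6 peak 13 (intron, 84.5 kb), was open in 9.62 ± 3.47% of PST and 4.79 ± 2.11% of PCT nuclei and in 0.706 and 0.588% of thinned ones. It was higher at P0 in the loop of Henle (1.22 ± 0.47, adjusted p = 0.0291). Cdh6 peak 23 (intron, 23.8 kb) had 34 open calls at P0 in the loop of Henle and 0 in adult. It was at least 10.7-fold higher at P0 with the floor of 3 open calls over the adult group. It had enough open calls to be tested through the P0 samples alone.

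Cdh11, the OB-cadherin gene, was open in stroma and, at P0, in nephron progenitors. At P0 stroma 2 (0.965 ± 0.0490, n = 2), nephron progenitors (0.940 ± 0.00977) and stroma 1 (0.876 ± 0.114) did not differ beyond their spread. In adult the first was stroma 2 at 0.603 ± 0.0376 (n = 3), followed by podocytes at 0.451 ± 0.167 and stroma 1 at 0.201 ± 0.0861. In the nephron progenitor cluster the level was 0.947 and 0.933 at P0 and 0.173, 0.0609 and 0.0271 in adult, a log2 fold change of 3.77 ± 0.36 (edgeR adjusted p = 6.1e-14). The samples did not overlap, but the adult side rests on 4, 2 and 1 open calls against 607 and 714 at P0. The fall of the progenitor markers between stages in this cluster, given above, moved with it, and its part in the result was not tested.

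In stroma 2 the Cdh11 level was 1.00 and 0.931 at P0 against 0.626, 0.622 and 0.559 (0.75 ± 0.13, edgeR adjusted p = 7.2e-04), and in stroma 1 0.957 and 0.795 against 0.170, 0.134 and 0.298 (2.15 ± 0.27, 8.1e-06). The 2 stromal clusters thus lay close together at P0 and apart in adult. The 4 stromal markers in stroma 1 were summed at 3.23 to 3.36 per 10000 at P0 and 1.50 to 2.18 in adult, and in stroma 2 at 3.24 to 3.25 and 3.62 to 4.22. The part of this shift in stroma 1 was not tested. The 5 tubule clusters that could be tested had lower levels that were also higher at P0, with the loop of Henle at 0.446 and 0.280 against 0.0640, 0.0458 and 0.0411 (2.90 ± 0.31, 6.1e-05). In CNT the log2 fold change was 2.65 ± 0.39 (7.0e-05), on 62 open calls at P0 and 18 in adult. The filter on open calls can be passed by the P0 samples alone, so which clusters were tested depended in part on the P0 level.

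Cdh11 was also called in PCT, PST, principal cells and endothelial cells, with log2 fold changes of 1.20, 1.45, 1.62 and 1.32 and edgeR adjusted p of 0.00860, 0.0480, 0.00140 and 0.0298. Without P0 sample 1 these were 0.107, 0.655, 0.0763 and 0.170. Without P0 sample 2 they were 0.0882 in PCT, 0.0969 in PST and 0.323 in endothelial cells, without P56 sample 1 0.0657 in PST and 0.104 in endothelial cells, and without P56 sample 2 0.0707 in PST. The 4 stromal markers were also higher at P0 in these clusters, at 0.636 to 0.682 per 10000 against 0.375 to 0.430 in PCT, 1.01 to 1.11 against 0.542 to 0.626 in PST, 0.866 to 0.881 against 0.514 to 0.536 in principal cells and 0.708 to 0.763 against 0.473 to 0.555 in endothelial cells. In CNT they were at 0.877 to 0.894 against 0.503 to 0.575. Their part was not tested. Podocytes, at 0.675 and 0.654 against 0.623, 0.442 and 0.289, were not called (0.56 ± 0.24, adjusted p = 0.134).

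Of 18 Cdh11 peaks only 5 had enough open calls for a test, and 10 of 16 pairs of a peak and a cluster were higher at P0. The start peak, Cdh11 peak 17, was higher in 6 of 7 clusters. In the nephron progenitor cluster it had 40.4 and 39.9 CPM at P0 and 0, 0 and 2.71 in adult, from 564 open calls against 1. The ratio was 37.2 with a 95% counting interval of 6.66 to 1473 (edgeR adjusted p = 2.0e-16). Cdh11 peak 18, 1.17 kb upstream of the start, was open in 4.60 ± 2.72% of stroma 2 nuclei over 5 samples (0.595% when thinned) and was higher at P0 in the loop of Henle (3.07 ± 0.70, adjusted p = 6.2e-04).

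Cdh5, the VE-cadherin gene, had its highest level in endothelial cells in each of 5 samples. There it was 0.987 and 0.980 per 10000 at P0 and 1.27, 1.69 and 1.41 in adult, and at both stages endothelial cells stood beyond the spread of the next. All adult samples were above both P0 samples, with a log2 fold change of −0.60 ± 0.16 (edgeR adjusted p = 0.0153, and 0.186 and 0.207 without P0 sample 1 or 2). The 5 endothelial markers moved the same way in that cluster, from 11.3 and 11.6 per 10000 at P0 to between 16.2 and 18.9 in adult, and their part was not tested. The window was open in 47.6 ± 3.14% of P0 and 32.9 ± 3.99% of adult endothelial nuclei before thinning. In thinned endothelial nuclei it was open in 11.4 and 15.1%. The unthinned shares thus ran against the levels and no order is read from them. In thinned nuclei immune cells led Cdh5 in P0 sample 2. The thinned P0 share was 10.6 ± 10.5% in immune cells against 11.4 ± 1.37% in endothelial cells.

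The endothelial difference of Cdh5 lay in an intron and not at the start. Cdh5 peak 10 (20.6 kb) had 21.3 and 17.7 CPM at P0 and 47.6, 81.0 and 80.3 in adult, a log2 fold change of −1.94 ± 0.24 (edgeR adjusted p = 3.2e-06). The start peak had a log2 fold change of 0.04 ± 0.23 and was not called (adjusted p = 0.917). With the window cut to the start region alone, the log2 fold change was 0.11 and the direction was reversed, also not called (0.687). Cdh5 peak 10 was open in 17.2 ± 5.15% of endothelial nuclei and 2.83% of stroma 1 nuclei over 5 samples. In stroma 2 it had 4 open calls at P0 and 18 in adult and was lower at P0 as well (−4.20 ± 0.89, adjusted p = 4.0e-04).

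Outside the endothelium, the next level of Cdh5 at P0 was in immune cells, at 0.629 and 0.683 per 10000, against 0.0768, 0.150 and 0.160 in adult. The samples did not overlap, but the log2 fold change of 2.17 ± 0.51 was not called (edgeR adjusted p = 0.185), on 39 open calls at P0 and 11 in adult. Cdh5 peak 7, in a non-coding exon or UTR 9.42 kb past the start, was open in 15.2 and 19.3% of P0 immune nuclei and in 0, 2.38 and 2.97% of adult ones, against 5.41 and 4.13% and 1.36 to 3.79% of endothelial nuclei. This peak was picked after its values were seen. The 5 endothelial markers in immune cells were summed at 3.64 to 3.82 per 10000 at P0 and 2.54 to 3.22 in adult, against 11.3 to 18.9 in endothelial cells. In stroma 2 the Cdh5 window was higher at P0 (1.00 ± 0.28, adjusted p = 0.0152), with overlapping samples, and this was 0.0927 and 0.234 without P0 sample 1 or 2.

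Cdh13, the T-cadherin gene, changed in opposite directions in endothelial cells and stroma 2. In endothelial cells it was 2.62 and 2.37 per 10000 at P0 and 1.40, 1.33 and 1.18 in adult, without overlap, a log2 fold change of 0.94 ± 0.14 (edgeR adjusted p = 6.4e-04). In stroma 2 it was 1.41 and 1.45 at P0 and 1.72, 2.42 and 1.95 in adult, again without overlap, and the log2 fold change was −0.45 ± 0.15 (adjusted p = 0.0351). In stroma 1 it was 1.02 and 1.11 at P0 and 1.02, 0.773 and 0.913 in adult, not called and on the endothelial side (0.39 ± 0.16, adjusted p = 0.0806). With DESeq2 the stroma 2 difference was not called (−0.46, adjusted p = 0.0579). With edgeR it was −0.44 and −0.43 without P0 sample 1 or 2, with adjusted p of 0.244 and 0.240, and with the start region alone it was 0.60 in the other direction, not called (0.276). At P0 endothelial cells (2.49 ± 0.178, n = 2) stood beyond the spread of nephron progenitors (1.99 ± 0.127), and in adult stroma 2 (2.03 ± 0.355, n = 3) stood beyond that of endothelial cells (1.30 ± 0.111).

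Apart from PST, the nephron progenitor, podocyte, tubule and collecting duct clusters were higher at P0 like the endothelium and unlike stroma 2. Cdh13 had log2 fold changes of 1.68 ± 0.20 in the nephron progenitor cluster (1.90 and 2.08 against 0.865, 0.762 and 0.488) and 1.78 ± 0.22 in the loop of Henle (1.56 and 1.47 against 0.646, 0.409 and 0.310), with edgeR adjusted p of 1.1e-10 and 1.3e-04. It was also higher at P0 in podocytes, PCT, DCT, CNT, principal cells and intercalated cells, at log2 fold changes of 0.71 to 1.16. Their adjusted p was 0.00534, 0.00257, 0.00459, 0.00304, 0.00126 and 0.0299. Without P0 sample 1 it was 0.0971 in podocytes, 0.0511 in PCT, 0.262 in DCT, 0.0635 in CNT and 0.267 in intercalated cells. Without P0 sample 2 it was 0.0508 in PCT, 0.0582 in principal cells and 0.366 in intercalated cells. Without P56 sample 1 it was 0.135 in podocytes, and in intercalated cells 0.0589 without P21 and 0.0506 without P56 sample 2. In PST the samples overlapped and Cdh13 was not called (−0.19 ± 0.23, adjusted p = 0.632). The 5 endothelial markers were also higher at P0 in PCT, at 0.918 to 0.925 per 10000 against 0.455 to 0.577. They were higher too in the loop of Henle, DCT, CNT, principal cells and intercalated cells. In podocytes and the nephron progenitor cluster they overlapped between stages. Nephron progenitor markers were higher at P0 in all clusters where Cdh13 was. They were also higher in PST, where it was not called, and in stroma 2, where it was lower. In stroma 2 they were at 0.560 to 0.607 per 10000 at P0 against 0.262 to 0.444. Only in immune cells did they overlap between stages. The part of these shifts was not tested.

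In endothelial cells 9 peaks were higher at P0, among them the start peak (3.17 ± 0.62, edgeR adjusted p = 4.8e-04), and 1 was lower. In stroma 2 5 of 7 tested peaks were lower and the start peak was not called. Cdh13 peak 51 (418 kb) was lower at P0 in both, at −2.11 ± 0.48 in endothelial cells and −4.69 ± 0.63 in stroma 2 (adjusted p of 0.00175 and 2.0e-06). In stroma 2 it had 0.211 and 0.555 CPM at P0 and 9.11, 7.98 and 14.5 in adult, a ratio of 27.6 with a 95% counting interval of 12.3 to 72.7 on 7 and 44 open calls.

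Other Cdh13 peaks gave some of the largest single differences. Cdh13 peak 64 (566 kb) was lower at P0 in PST, with 1 open call against 205, a ratio of 25.0 with a 95% counting interval of 4.44 to 992, and also in PCT (−3.87 ± 0.63, edgeR adjusted p = 6.6e-04). Cdh13 peak 89 (770 kb) was higher at P0 in PCT, with 17 against 2 open calls, a ratio of 42.8 (10.2 to 382). Cdh13 peak 76 (618 kb) was higher at P0 in the loop of Henle, with 33 against 1, a ratio of 31.3 (5.23 to 1271). Over the gene, 31 of 64 tested pairs of a peak and a cluster were higher at P0 and 8 lower.

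**Figure D4:**
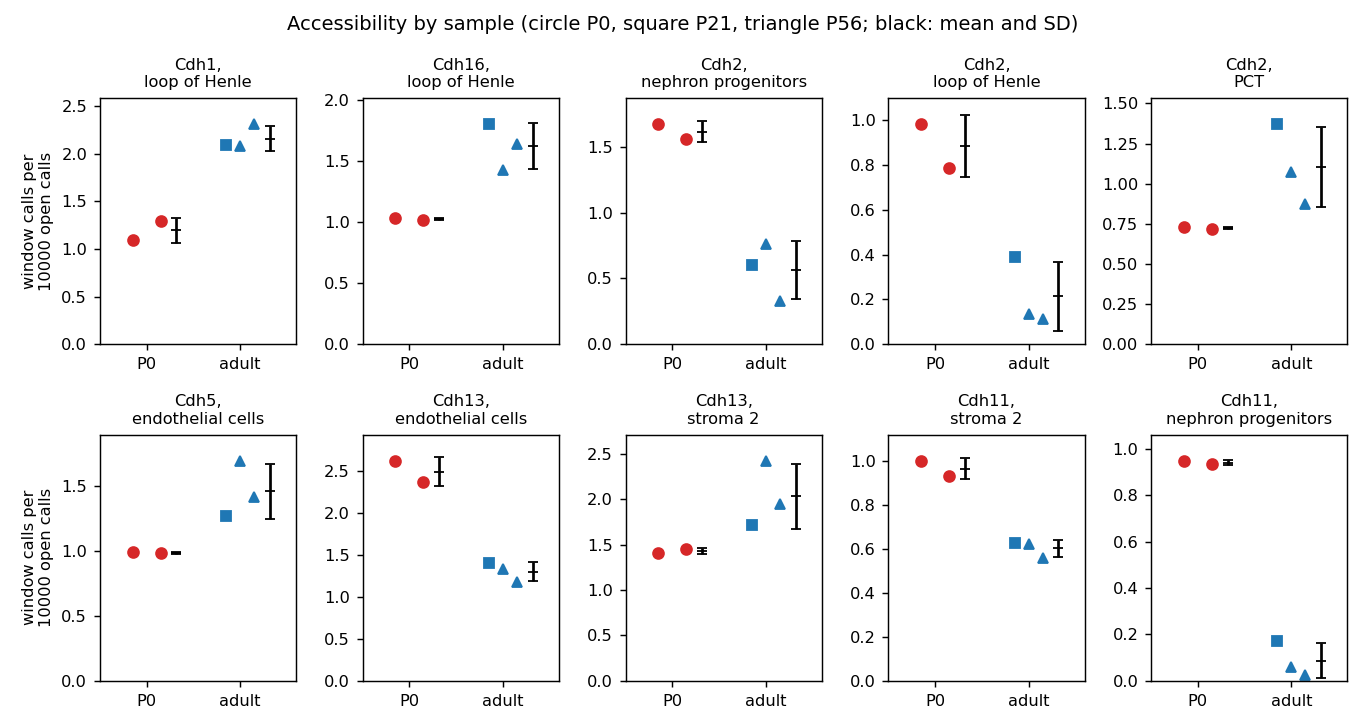
Level per sample (open calls in the window per 10000 open calls) for 10 pairs of a cadherin and a cluster. Circles are the 2 P0 samples, the square is P21, triangles are the 2 P56 samples, and black bars are the mean and SD of each stage. The 10 pairs were picked among the called ones. Their P0 and adult points do not overlap, which is no separate evidence of a difference. Cdh2 falls from P0 to adult in the cluster labelled nephron progenitors and in the loop of Henle and rises in PCT, and Cdh13 falls in endothelial cells and rises in stroma 2.

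Over all members, 158 of the 334 peaks had enough open calls to be tested in some cluster. A peak could reach this through the samples of 1 stage alone, so the tested pairs depended in part on the level at that stage. Of 357 pairs of a peak and a cluster, 122 were higher at P0, against 18.0% of all peak and cluster pairs, and 52 were lower, against 16.0%. Cdh1 and Cdh2 each had 1 peak called in both directions in different clusters, Cdh1 peak 7 and Cdh2 peak 29.

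The genes whose level over 26 means of cluster and stage was most like a member were named by the Pearson correlation of log2(CPM + 1), given without a p since the points share samples and depth. Cdh5 was most like Exoc3l2 (r = 0.92) and Kdr (0.91), a receptor of vascular endothelial growth factor and one of the endothelial markers. Cdh1 was most like F2rl1 (0.97) and Elf3 (0.96), an epithelial transcription factor, and Cdh16 like Akr1c19 (0.93) and Rap1gap (0.92). Cdh11 was most like Aff3 (0.95) and Adgrl3 (0.93), Cdh4 like Cartpt (0.93) and Kcnc1 (0.92), and Cdh2 like Tunar (0.90) and Prima1 (0.89). The correlations were 0.91 or less for Cdh3 with Gm28729 (0.91) and Pacsin3 (0.90), Cdh6 with Gm44596 (0.89) and Prss12 (0.88), and Cdh13 with Ano2 (0.87).

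Genes of the catenins, their linkers and the nectins, transmembrane receptors of the same junctions, were more often lower than higher at P0. Over these 13 genes, 26 of 167 gene and cluster pairs were higher at P0 (15.6%) and 46 lower (27.5%), with a median log2 fold change of −0.22, beside 13.7 and 10.5% over all genes. Ctnnb1 (beta-catenin), Ctnna1 (alpha-catenin) and Ctnnd1 (p120-catenin) were lower at P0 in 4, 5 and 4 of 13 clusters. Jup (plakoglobin) was lower in 8, Vcl (vinculin) in 7 and Plekha7 in 9 of 13. Other catenins were higher at P0, Ctnnd2, known from neurons, in 11 of 13 clusters with a median log2 fold change of 1.17, Ctnna3 in 6 and Ctnna2 in 5 of 13, with Ctnna2 lower in 1.

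Of the transcriptional repressors known to bind the E-box of Cdh1, 10 of 58 pairs were higher (17.2%) and 3 lower (5.17%) at P0, beside 13.7 and 10.5% over all genes, with a median log2 fold change of 0.20. Twist1 was higher in 3 of 7 clusters, Snai2 higher in 2 of 12 and lower in 1, and Zeb1 and Zeb2 higher in 2 and 3 of 13 and lower in 1 each. Snai1 had a median log2 fold change of −0.08 over 13 clusters. Of 14 cadherins outside the 9 members, 13 could be tested in some cluster, and 65 of 99 pairs were higher at P0 (65.7%) with a median log2 fold change of 1.20. By edgeR none was lower, also at an unadjusted p under 0.05 and with DESeq2. Cdh23 was higher in 11 of 13 clusters, Cdh22 in 10 of 12, and Cdh18 and Cdh20 in 8 of 10 and 8 of 11, whereas Cdh10 was called in 2 of 6 and Cdh24 in 1 of 12.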

How the data were processed

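The authors made the deposited counts from 5 snATAC-seq samples with Cell Ranger ATAC 1.1.0 on mm10, called peaks with MACS 2 on nuclei pooled by cell type and merged them, so peaks are shared by all samples. The deposited counts are binary, 1 where a nucleus has a fragment in a peak, and carry no depth scaling. Clusters were taken from the deposited annotation, and samples were grouped by their labels.

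Open calls were summed per sample, cluster and gene window (protein-coding genes, gene body plus 2 kb) or per peak. Sums of at least 20 nuclei entered edgeR 4.0.16 (R 4.3.3), with filterByExpr at a minimum count of 10 and a total of 15, TMM scaling and the quasi-likelihood test of P0 against adult within each cluster. Benjamini-Hochberg adjustment ran over all genes, or all peaks, tested in the cluster, at a threshold of 0.05. The SE is the absolute log2 fold change over the square root of F. The difference of the stage effect between clusters was tested over all clusters with the sample as a block. Spreads of levels are SDs over samples, and a cluster stood beyond the spread of the next when their means differed by more than the larger of both SDs. Intervals and floors of 3 open calls cover counting error only. Nuclei were thinned to 1000 open peaks for thinned shares, leaving out 794 shallower nuclei. The edgeR script was tested on simulated data.

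Named were all 9 members, the start peak and the most open other peak of each, the 10 largest called peak differences whose groups did not overlap, and the 2 genes most like each member. Of these, 1 peak and 1 gene are not reported here. Peaks outside this rule were chosen after their values were seen. Members, marker genes, gene lists and motifs were chosen with earlier results of these data known. Alternatives were DESeq2 1.42.0, size factors, total calls, no filter, 50 nuclei, a replicate block, thinned nuclei, equal nuclei, the start window and leaving out each sample. Coordinates and sequences are from GRCm38.p6 with GENCODE annotation. The RefSeq promoter table matched 1 member, Cdh6. Of the single-cell RNA-seq, only tables of cluster, stage and embedding were at hand, and expression was not analysed here. Tables were handled in Python 3.11.15 with numpy 2.4.6, pandas 2.3.3 and scipy 1.17.1.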

Additional observations from a re-analysis of the deposited data

Results flagged for a closer look

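The stage difference of every member differed between clusters in edgeR's quasi-likelihood F test of 12 stage-by-cluster terms with the sample as a block, adjusted over 17235 genes, of which 61.0% passed. The adjusted p was 1.8e-09 for Cdh1, 2.4e-14 for Cdh2, 3.7e-05 for Cdh3, 9.7e-08 for Cdh4, 7.1e-06 for Cdh5, 2.3e-06 for Cdh6, 1.3e-07 for Cdh11, 1.6e-11 for Cdh13 and 0.00170 for Cdh16. Called clusters had opposite signs for Cdh2 (1.69 in nephron progenitors and −0.71 in PCT on the log2 scale), Cdh13 (0.94 in endothelial cells and −0.45 in stroma 2) and Cdh5 (−0.60 in endothelial cells and 1.00 in stroma 2), and for the other 6 members the called clusters shared a sign. A gap test for 1 sample far from the rest of its group was not run, since it needs at least 4 samples a group. When each sample was left out in turn, 8 to 9 members passed.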

How the results depend on the processing

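The number of calls depended on the setting. In thinned nuclei 27 of the 62 called pairs passed, 17 kept their direction without passing and 0 were reversed. The others gave no value there. The 48 member and cluster pairs that were higher at P0 became 22 in thinned nuclei, 29 with the start window and 24 to 46 when 1 sample was left out, fewest without P0 sample 1 (24) and then without P0 sample 2 (31). DESeq2 gave 36. The 14 lower pairs became 5, 8 and 6 to 15 in the same settings. The 122 higher pairs of a peak and a cluster became 300 with no filter, 8 in thinned nuclei, 50 with equal nuclei and 53 to 181 when 1 sample was left out, and the 52 lower ones became 7, 27 and 26 to 65 in thinned nuclei, with equal nuclei and when 1 sample was left out. The stage effect differed between clusters for 8 members in thinned nuclei and for 8 to 9 when 1 sample was left out, with 8 without P0 sample 2. The 2 members with the same leading cluster in 5 samples became 5 over the P0 samples alone, 5 over the P21 and P56 samples alone, 0 in thinned nuclei and 1 with the start window. Cdh5 in endothelial cells (0.11) and Cdh13 in stroma 2 (0.60) were reversed with the start window, which keeps only peaks within 2 kb of an annotated transcript start. The causes of these changes were not tested. Of the 62 called pairs, 60 had the same direction in every alternative that gave a value, and 21 also passed the threshold in each: Cdh4 and Cdh11 in 5 clusters each, Cdh2 in 4, Cdh13 in 3, Cdh6 in 2, and Cdh1 and Cdh16 in 1 each. With the replicate block the counts were 49 and 14 pairs of genes and 118 and 50 of peaks. The numbers do not pair the samples: the differences between samples 1 and 2 of P0 and P56 correlated at 0.01 to 0.25 within clusters, over only 2 pairs.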
